A study of Mus musculus with 16 samples.

Results

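The response of the footpad to pristane was examined in AIRmin mice, a line bred for minimal acute inflammation, by setting 4 arrays from pristane-treated mice at day 160 against 4 arrays from control mice at day 0. These 8 arrays were chosen by their labels alone, out of 16 in the series, and all 19938 genes that could be named on the array were tested. AIRmin mice descend, as do AIRmax mice bred for maximal inflammation, from an intercross of inbred strains, and the labels give both as outbred stock. Pristane is a mineral oil that causes a chronic arthritis in susceptible mice. AIRmin mice stay largely free of it. By the protocol, 0.5 ml was injected intraperitoneally, and a second injection followed 60 days later. Each group held 2 males and 2 females, and the labels give an age of 2 to 4 months for every animal. Since 160 days exceed 4 months, that cannot be the age at which the pristane mice were sampled. The labels do not say whether the control mice were injected with anything. Since every control footpad is labelled day 0 and every pristane footpad day 160, treatment, elapsed time and the age of the mouse cannot be told apart in any value below. Arthritis scores of the individual mice were not used here.

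The footpad is a composite tissue. It holds a thick keratinised epidermis, a dermis rich in collagen, fat pads, tendons, skeletal muscle, and small bones with their marrow. The matrix of dermis, tendon and bone is built of collagen fibrils, whose diameter and spacing are tuned by small leucine-rich proteoglycans that bind to them. Resident macrophages, marked by scavenger and mannose receptors such as Cd163 and Mrc1, patrol this connective tissue, and keratinocytes hold interleukin 1 family cytokines and their natural antagonists. In a joint with arthritis, recruited myeloid cells, chemokines, acute phase proteins and matrix metalloproteinases are the usual additions.

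The arrays carried the marks of that tissue. On the log2 signal scale the keratin gene Krt5 stood between 11.98 and 12.53 on the 8 arrays, the fast muscle gene Actn3 between 8.22 and 9.84, the fat gene Fabp4 between 9.03 and 10.39 and the neutrophil elastase gene Elane between 6.63 and 10.67. For scale, Uty, Kdm5d and Eif2s3y, which lie on the Y chromosome and which females lack, read 2.08 to 3.34 on the female arrays and 5.38 to 7.39 on the male ones, and Xist read 3.52 to 4.32 in males and 9.07 to 10.09 in females, in accord with the labelled sex on all 8. Pristane arrays 118 and 119 lay farthest from the mean of their group, with a root mean square deviation of 0.285 and 0.294 over all genes, against 0.166 to 0.238 for the other 6. Array 118, from a male, also had the highest level of marrow genes. In whole tissue, fewer cells of a type and less RNA per cell cannot be told apart.

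No gene passed an adjusted p of 0.05 (limma, Benjamini-Hochberg), which is 0.0% of those tested. The smallest adjusted p was 0.0513, and 31 genes shared it, 23 with a lower and 8 with a higher mean after pristane. Before adjustment, a p under 0.05 was reached by 1020 genes with a higher mean (5.12%) and by 1449 with a lower mean (7.27%). All 4 pristane arrays lay above all 4 controls for 636 genes (3.19%) and below them for 862 (4.32%). Whatever its p, the mean was higher after pristane for 10911 genes and lower for 9027. The counts for gene lists below are to be read against these shares. The whole result was sensitive to a single array. Without array 118, 66 genes rose (0.331%) and 72 fell (0.361%), whereas leaving out any of the other 7 arrays gave none. SAM, the permutation method of the study, called 48 genes higher (0.241%) and 368 lower (1.85%) on all 8 arrays at an estimated false discovery rate of 0.049. The group means below are therefore given as differences with their standard errors. The adjusted p without array 118 stands beside those that then passed. Array 118 was picked by that outcome, although array 119 lay farther from the mean of its group. These p values show only how the result depends on 1 array. Where genes are said to fall or rise without array 118, that is no call on all 8 arrays. A log2 difference of 1 is a 2-fold one, and 118 genes differed by at least that much.

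Ranked by unadjusted p, the lower side began with the matrix and tendon genes Aspn, Tnmd and Ecm2, followed by the B cell genes Fcmr and Fcer2a and the macrophage gene Cd163. Ranked by size among brighter genes without overlap it began instead with Krtap13, a hair keratin-associated protein gene, at −1.92 ± 0.42, then Cd79a, Phex and Cd79b. Among the 31 genes with the smallest adjusted p were 5 leucine-rich repeat matrix genes, Aspn, Ecm2, Ogn, Lum and Chad, along with Tnmd, a membrane protein of tendon cells. Aspn, which encodes asporin, read 10.56, 10.72, 10.63 and 10.69 in the controls and 9.98, 9.86, 9.87 and 9.81 after pristane. Every pristane array was below every control, and the spread within either group was small beside the gap, a mean difference of −0.77 ± 0.08 (SE, n = 4 against 4). Tnmd read 8.65, 8.56, 8.39 and 8.36 against 7.61, 7.60, 7.19 and 7.45, a difference of −1.02 ± 0.12. Ecm2 read 7.97, 8.22, 8.10 and 7.92 against 7.24, 7.0, 6.66 and 6.98, a difference of −1.08 ± 0.13. The groups of both genes stood well apart. Without array 118 all 3 fell, each with an adjusted p of 0.0413.

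The same family was then followed as a whole, a choice made after these values were seen, so that its count is a description. Of 18 genes of small leucine-rich proteoglycans and their close relatives, 17 were measured, and for 13 of them all 4 pristane arrays lay below all 4 controls. The same held for 4.32% of all genes. The median difference over the 17 was −0.70, against 0.02 over all genes. Decorin and biglycan, which bind collagen fibrils and are in the class that also holds asporin, differed by −0.43 ± 0.12 (Dcn) and −0.58 ± 0.16 (Bgn). Lumican, keratocan, fibromodulin and prolargin, which limit the thickness of fibrils or anchor them, differed by −0.86 ± 0.13 (Lum), −1.02 ± 0.17 (Kera), −0.70 ± 0.12 (Fmod) and −0.69 ± 0.15 (Prelp). Osteoglycin, encoded by Ogn, read 8.50, 8.59, 8.21 and 8.74 in controls and 7.48, 7.36, 7.21 and 7.86 after pristane. Osteomodulin, a keratan sulphate proteoglycan of bone encoded by Omd, read 6.07, 5.92, 6.10 and 6.43 against 5.35, 5.05, 4.52 and 5.10. Both were lower on every pristane array, by means of −1.03 ± 0.16 and −1.13 ± 0.18. Chondroadherin (Chad), a cartilage protein that binds integrins, differed by −0.99 ± 0.15, Epyc by −0.77 ± 0.26 and Podn by −0.53 ± 0.11. The exceptions were Optc, Podnl1, Chadl and Nyx, whose groups overlapped and whose differences lay between −0.08 and 0.25. Optc and Podnl1 were also among the dimmest, with control means of 4.27 and 4.95. Without array 118, 6 of the 17 passed the adjusted threshold, namely Aspn, Ecm2, Lum, Ogn, Omd and Chad. In AIRmax mice the median difference of the 17 was −0.30, and 11 of 17 means were lower. No member passed the test of a difference between the lines.

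**Figure D1:**
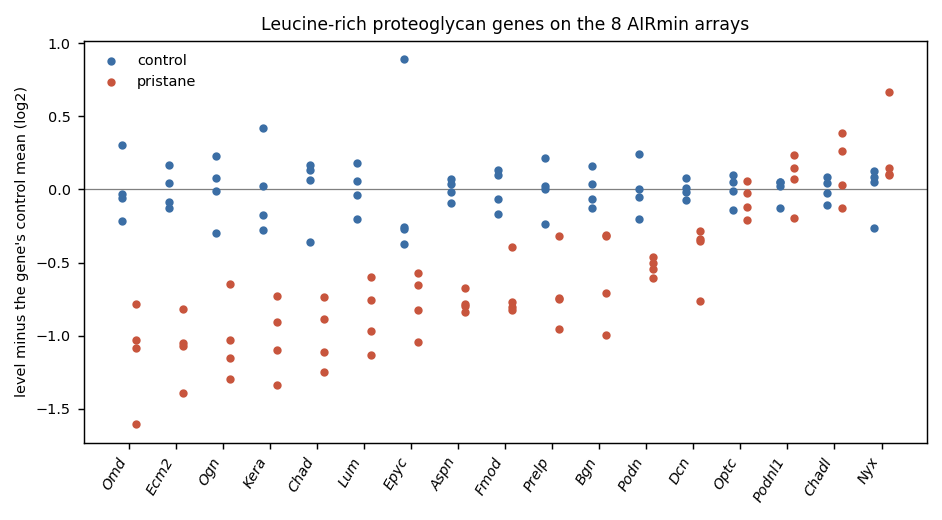
Level of each measured leucine-rich proteoglycan gene on the 8 AIRmin arrays, as log2 signal minus the mean of the 4 controls, with controls in blue and pristane arrays in red. For 13 of the 17 genes all red points lie below all blue ones, and the 4 genes at the right overlap.

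Part of that family sits in gene clusters, and in both clusters the neighbours were lower together. In the RefSeq gene order of mouse chromosome 13, Ecm2, Aspn, Omd and Ogn follow each other with no other protein-coding gene starting between them, inside the span of Cenpp, a centromere protein gene. All 4 had groups without overlap, while Cenpp differed by 0.07 ± 0.14 and Nol8, the next gene, by −0.09 ± 0.14. On chromosome 10 the row is Dcn, Lum, Kera and Epyc, again all 4 lower without overlap, between Btg1 at 0.01 and Ccer1 at −0.05. Neighbouring genes of a cluster can share control regions, so their differences are not separate observations.

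**Figure D2:**
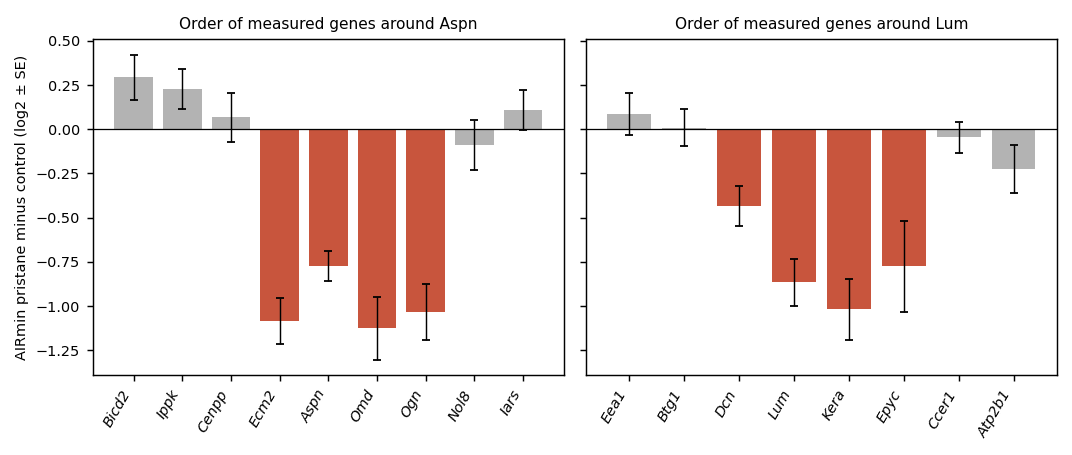
Difference between pristane and control AIRmin arrays (log2, bars, with the standard error) for measured protein-coding genes in their order on chromosome 13 around Aspn and on chromosome 10 around Lum. Red bars are leucine-rich proteoglycan genes, between −0.43 and −1.13, and grey bars are their neighbours, between −0.22 and 0.29.

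The promoters of the chromosome 13 row are shown because those 4 neighbours had differences of the same sign and lie on the same strand. Each runs from 250 bases before to 50 bases after the RefSeq start, on the plus strand of GRCm38.p6, at chr13:49504560-49504859 for Ecm2, chr13:49544193-49544492 for Aspn, chr13:49582212-49582511 for Omd and chr13:49607765-49608064 for Ogn. Capitals mark matches on either strand to 1 of 3 motifs. They are CCAAT for the CAAT box, TATAAA for the core letters of the TATA box, and TGANTCA for AP-1, the factor that Fos is part of.
Ecm2: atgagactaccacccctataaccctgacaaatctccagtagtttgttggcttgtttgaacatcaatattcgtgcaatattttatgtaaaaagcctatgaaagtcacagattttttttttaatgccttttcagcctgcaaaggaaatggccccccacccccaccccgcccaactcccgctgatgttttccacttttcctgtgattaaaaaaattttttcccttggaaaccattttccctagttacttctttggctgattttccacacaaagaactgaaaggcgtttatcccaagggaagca
Aspn: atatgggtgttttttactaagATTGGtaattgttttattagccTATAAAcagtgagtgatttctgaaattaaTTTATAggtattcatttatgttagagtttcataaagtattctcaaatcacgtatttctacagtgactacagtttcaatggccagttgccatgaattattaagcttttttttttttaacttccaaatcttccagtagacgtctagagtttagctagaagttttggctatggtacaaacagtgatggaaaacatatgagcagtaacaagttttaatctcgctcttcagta
Omd: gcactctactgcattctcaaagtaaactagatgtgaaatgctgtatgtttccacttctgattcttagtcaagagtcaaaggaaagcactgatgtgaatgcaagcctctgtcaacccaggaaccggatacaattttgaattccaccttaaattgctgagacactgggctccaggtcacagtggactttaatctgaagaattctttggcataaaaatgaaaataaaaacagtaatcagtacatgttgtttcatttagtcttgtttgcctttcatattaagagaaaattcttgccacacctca
Ogn: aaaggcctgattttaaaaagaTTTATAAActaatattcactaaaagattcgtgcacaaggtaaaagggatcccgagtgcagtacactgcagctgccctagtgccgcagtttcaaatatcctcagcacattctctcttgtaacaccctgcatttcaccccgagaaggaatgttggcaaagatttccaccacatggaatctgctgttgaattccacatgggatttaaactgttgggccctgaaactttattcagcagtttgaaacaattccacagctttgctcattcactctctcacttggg
Aspn holds 1 match to CCAAT and a further 2 matches to TATAAA, which begin at positions −207 and −178 from the start. Ogn holds 2 overlapping matches to TATAAA, at −229 and −227. These positions are far from the start, unlike that of a TATA box in use, and Ecm2 and Omd hold none of the 3 motifs. The AP-1 letters are in none of the 4 windows. The 32851 windows of this length that were counted left out 1 chromosome. Of them, 37.4% hold the CCAAT letters, 13.6% hold the TATAAA letters and 7.8% hold the AP-1 letters.

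Fibrillar collagens and the enzymes that finish them were lower as well. All 14 measured collagen genes had a lower mean after pristane, 13 at an unadjusted p under 0.05 and 8 without overlap, with a median difference of −0.53. Over all genes the shares of such lower ones were 7.27% and 4.32%. Col1a2, a chain of type I collagen, read 12.57, 12.20, 11.90 and 12.61 in controls and 11.09, 11.82, 10.56 and 11.42 after pristane. Array 118 came close to the lowest control, and the mean difference was −1.10 ± 0.26, with an adjusted p of 0.0465 without that array. Col3a1 read 11.24, 11.09, 10.63 and 11.20 against 10.28, 10.33, 9.52 and 9.95, a difference of −1.02 ± 0.20. Col5a2, of the type V collagen that seeds fibrils, differed by −1.08 ± 0.22, with an adjusted p of 0.0988, and fell without array 118 (adjusted p = 0.0456). Of 10 measured genes of collagen processing, all 10 means were lower, 9 at an unadjusted p under 0.05. Lox, the lysyl oxidase that cross-links fibrils, read 8.85, 8.67, 8.58 and 9.15 against 7.51, 8.24, 7.18 and 8.06, a difference of −1.07 ± 0.23. Serpinh1, the collagen chaperone, differed by −0.67 ± 0.12, Bmp1, the procollagen C-proteinase, by −0.60 ± 0.12, and its enhancer Pcolce by −0.75 ± 0.18. Without array 118 Lox (adjusted p = 0.0456), Serpinh1 (0.0458) and Pcolce (0.0456) fell.

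Bone, cartilage and tendon genes followed. All 7 measured osteoblast and bone matrix genes had an unadjusted p under 0.05 and a lower mean, with a median of −0.90, the most negative of the 45 lists. Ibsp, bone sialoprotein, read 9.98, 9.71, 9.69 and 10.38 in controls and 8.22, 9.63, 7.80 and 9.04 after pristane. Array 118 again came close to the lowest control, and the difference of −1.27 ± 0.35 became −1.59 without it (adjusted p = 0.0462). Phex, which restrains phosphate loss, differed by −1.33 ± 0.33, Sp7, the osteoblast transcription factor, by −0.94 ± 0.23, and Mepe, of osteocytes, by −0.67 ± 0.20. Col10a1, the collagen of hypertrophic growth plate cartilage, read 7.37, 8.07, 7.95 and 8.47 against 6.94, 7.04, 6.49 and 6.48, a difference of −1.23 ± 0.22 (adjusted p = 0.047 without array 118). Of 12 cartilage and tendon genes 11 means were lower and 7 did not overlap, against 4.32% of all genes that were lower without overlap. Comp was among the 7, at −0.68 ± 0.12 (adjusted p = 0.0413 without array 118). Acan, the aggrecan of cartilage, did overlap, at −0.37 ± 0.21, with array 118 at 7.52 and the other pristane arrays at 6.58 to 6.71. Osteoclast genes, which serve bone resorption, had a median of −0.10, with Ctsk at −0.97 ± 0.36 and Acp5 at −0.51 ± 0.33.

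Most growth-linked genes had lower means too, whereas the cell cycle genes taken up further below had higher ones. Of 11 growth-linked genes, most of them imprinted, 10 means were lower, 6 at an unadjusted p under 0.05. Gpc3, a glypican that restrains growth, read 8.13, 7.97, 8.28 and 8.20 in controls against 7.43, 7.0, 7.29 and 7.55, a difference of −0.83 ± 0.13 (adjusted p = 0.0517, and 0.0456 without array 118). Mest differed by −0.92 ± 0.27 and Ndn by −0.53 ± 0.13. The part of age in the matrix and bone values was not tested, since no untreated mouse of the later day is among the groups.

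**Figure D3:**
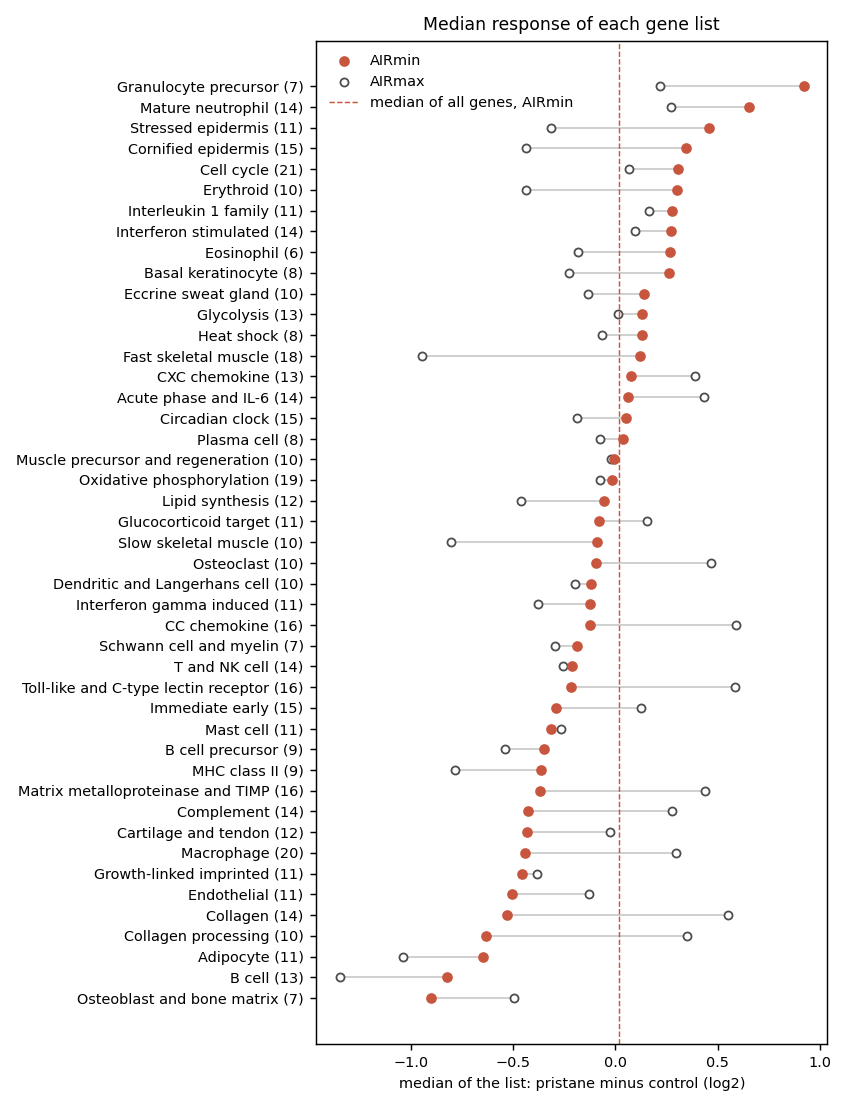
Median of the gene-level differences, pristane minus control (log2), for each of 45 gene lists, with the number of genes measured in brackets, in AIRmin (red) and AIRmax (open circles) mice. In AIRmin, bone, B cell, fat and collagen lists lie at the negative end and marrow and epidermal lists at the positive end. The dashed line is the AIRmin median of all genes, 0.02.

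The average level of macrophage marker genes was lower on every pristane array than on any control, although most single markers overlapped. All 20 macrophage genes had a lower mean, 14 at an unadjusted p under 0.05 and 7 without overlap, with a median of −0.44. Over all genes the shares of such lower ones were 7.27% and 4.32%. Cd163, the haemoglobin scavenger receptor, read 9.10, 9.01, 9.27 and 8.96 in controls and 8.43, 8.49, 8.45 and 8.40 after pristane. The 4 pristane arrays lay very close to each other, and the difference was −0.64 ± 0.09. Mrc1, the mannose receptor, read 9.25, 9.37, 9.34 and 9.40 against 8.52, 8.66, 8.19 and 8.75, a difference of −0.81 ± 0.12. Folr2, the folate receptor of tissue macrophages, read 8.45, 8.52, 8.74 and 8.63 against 7.70, 8.02, 7.92 and 7.89, a difference of −0.70 ± 0.10. Csf1r, the receptor through which macrophages receive their survival signal, differed by −0.58 ± 0.12. Without array 118 Cd163 and Mrc1 (adjusted p = 0.0456) and Folr2 (0.0427) fell. Of 14 complement genes 13 means were lower, C1qa by −0.58 ± 0.16, a gene that tissue macrophages express, and Cd55 by −0.50 ± 0.12. Ccl24, a chemokine for eosinophils, differed by −0.76 ± 0.13 without overlap. Of 10 dendritic and Langerhans cell markers 7 means were lower, 3 at an unadjusted p under 0.05 and 2 without overlap, with a median of −0.12. The 2 were the C-type lectin genes Clec10a, at −0.74 ± 0.11 (adjusted p = 0.0456 without array 118), and Cd209a, at −1.12 ± 0.21, which macrophages can also express. Cd207, which marks Langerhans cells, had an overlapping difference of 0.44 ± 0.42. Mast cell markers had none at an unadjusted p under 0.05, with a median of −0.31 that became −0.13 without control 115, −0.50 without control 113 and −0.20 without array 118.

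B cell genes had the second most negative median, −0.82. All 13 measured members had a lower mean, 11 at an unadjusted p under 0.05 and 9 without overlap. Over all genes the shares of such lower ones were 7.27% and 4.32%. Fcer2a, the low-affinity IgE receptor CD23 of mature B cells, read 5.39, 5.63, 4.92 and 5.05 in controls and 4.16, 4.18, 4.00 and 3.92 after pristane. Fcmr, the IgM receptor, read 6.14, 6.33, 6.21 and 6.08 against 5.13, 5.46, 5.44 and 5.42. Neither gene's groups overlapped, with differences of −1.18 ± 0.15 and −0.82 ± 0.10, and both fell without array 118 (adjusted p = 0.0413). Cd79a, of the B cell receptor, read 6.00, 7.14, 5.77 and 6.55 against 4.67, 5.58, 4.37 and 5.48, a difference of −1.34 ± 0.34, and Bank1 differed by −1.12 ± 0.22. Only 4 of the 13 had a control mean above the median signal of all genes, so this is a low signal. Precursor B cell genes had a median of −0.35, which became −0.18 without control 116 and −0.63 without control 115. Vpreb1, their surrogate light chain, read 3.42 to 3.95 on the 8 arrays, near the level of Y-linked genes in females. Plasma cell genes had a median of 0.04 (−0.07 to 0.20 with 1 array left out), with Jchain between 7.53 and 9.55. T and NK cell genes had a median of −0.21 (−0.13 without control 116, −0.14 without array 117), and none of the 14 stood without overlap. MHC class II genes, carried by B cells, macrophages and dendritic cells, had 9 of 9 means lower and a median of −0.36 (−0.55 without array 119), with H2-Aa at −0.60 ± 0.22.

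**Figure D4:**
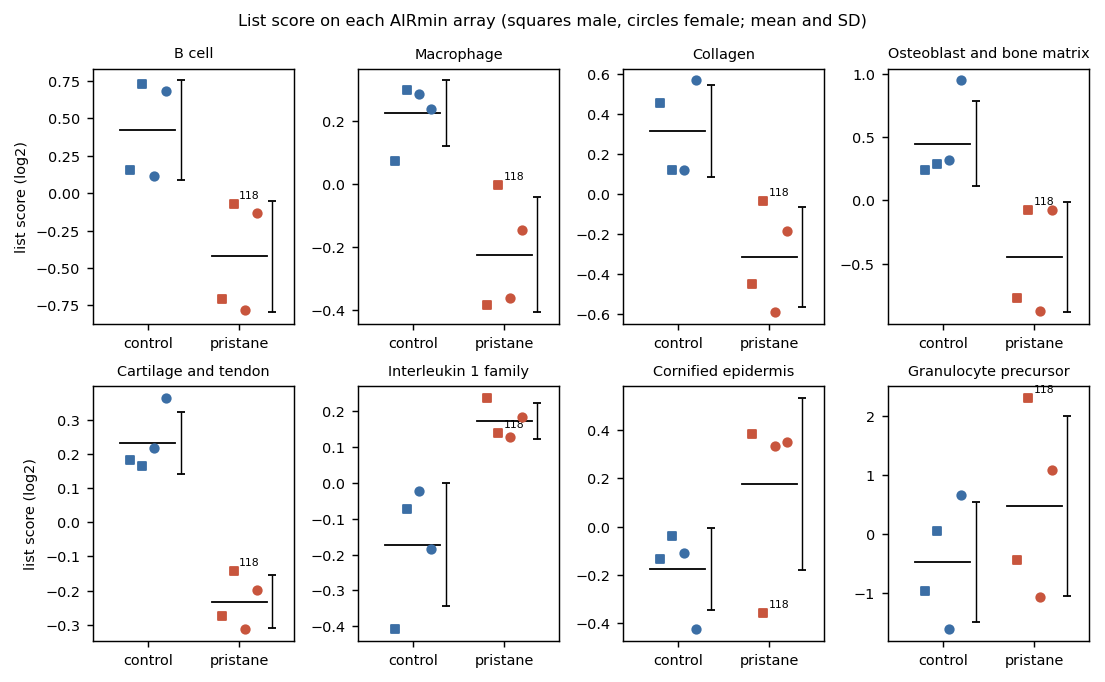
Score of 8 gene lists on each AIRmin array, where each gene is first centred on its mean over the 8 arrays and the score is the average over the list (log2). Squares are males, circles females, lines the means and bars the SD. Macrophage, B cell, collagen, bone and cartilage scores do not overlap between groups, array 118 is alone among pristane arrays in the cornified epidermis panel, and marrow granulocyte scores overlap widely.

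Fat and vessel genes were lower with more spread. All 11 adipocyte genes had a lower mean, 7 at an unadjusted p under 0.05, but only 1 did not overlap. That gene, Fabp4, which carries fatty acids, read 10.05, 10.14, 10.17 and 10.39 in controls and 9.30, 9.69, 9.03 and 9.81 after pristane, a difference of −0.73 ± 0.17. Adipoq, adiponectin, read 8.20, 8.40, 8.74 and 9.13 against 7.15, 8.19, 7.11 and 8.27, a difference of −0.94 ± 0.31 in which arrays 117 and 119 were about 1 log2 unit below the other pristane arrays. Those same arrays had the lowest scores for collagen (−0.45 and −0.59), bone (−0.77 and −0.87) and B cells (−0.71 and −0.78), and also low scores for marrow granulocyte precursors (−0.45 and −1.07). Controls 113 and 115 had low precursor scores too (−0.98 and −1.62). Their scores were positive for collagen (0.46 and 0.12) and bone (0.24 and 0.32). The part of tissue composition in these values was not tested. All 11 endothelial genes had a lower mean, 6 at an unadjusted p under 0.05 and 1 without overlap. The latter was Cldn5, of tight junctions, at −0.38 ± 0.10, while Pecam1 was at −0.59 ± 0.19. The shares of such lower ones over all genes were 7.27% and 4.32%. The endothelial score overlapped, with −0.02 to 0.39 in controls and −0.64 to 0.18 after pristane. Aplnr, the apelin receptor of vessels, is not in that list. It read 7.29, 7.63, 7.27 and 7.65 against 6.22, 6.41, 5.84 and 6.85, a difference of −1.13 ± 0.20 without overlap.

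Immediate early genes, which cells switch on within minutes of a stimulus or of handling, were lower in 14 of 15 cases, 7 at an unadjusted p under 0.05. Dusp1, a phosphatase that ends MAP kinase signals, read 10.02, 10.48, 10.56 and 10.61 in controls and 9.63, 9.56, 9.82 and 9.56 after pristane, a difference of −0.78 ± 0.14. Fos differed by −1.24 ± 0.28 with overlap. Nr4a1 differed by −0.98 ± 0.20 (adjusted p = 0.0456 without array 118) and Egr1 by −0.55 ± 0.12, both without overlap. For Dusp1, Fos, Nr4a1 and Egr1 the AIRmin controls had the highest mean of the 4 groups in the series. The Dusp1 mean was 10.42 there, against 9.13 in AIRmax controls and 9.25 in AIRmax pristane arrays. The Fos mean was 7.82, against 6.26 and 7.03. Ccn1, a secreted matrix protein that is itself induced early, read 8.60, 9.27, 8.99 and 9.43 against 7.60, 8.10, 7.71 and 7.88, a difference of −1.25 ± 0.18, and fell without array 118 (adjusted p = 0.0413). How long each footpad waited before RNA extraction is not given in the sources used here, and its part was not tested.

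On the higher side the 6 smallest p values were those of Ggct, Il1rn, Mapkapk3, Tmem154, Slc6a20a and Casp14, and the largest difference among brighter genes without overlap was that of 2610528A11Rik, at 1.10 ± 0.26. Interleukin 1 family members that keratinocytes make are taken first. Il1rn, the antagonist that occupies the interleukin 1 receptor without signalling, read 7.22, 7.45, 7.42 and 7.28 in controls and 8.03, 7.93, 7.99 and 7.89 after pristane. All pristane arrays were above all controls, with a difference of 0.62 ± 0.09 (adjusted p = 0.0513), and the gene rose without array 118 (adjusted p = 0.0456). Il1f9, which encodes an agonist cytokine of stressed keratinocytes, read 7.85, 8.32, 8.63 and 8.45 against 8.96, 9.22, 9.20 and 9.59, a difference of 0.93 ± 0.18. Il1f5, which encodes the antagonist of that agonist's receptor, read 8.39, 8.70, 8.63 and 8.12 against 9.30, 8.91, 9.42 and 8.98, a difference of 0.69 ± 0.16. The 3 genes thus included 2 antagonists and 1 agonist, and none overlapped. Il1rap, the shared receptor chain, differed by 0.26 ± 0.11 with overlap. Of 11 measured members of the family 10 means were higher, 5 at an unadjusted p under 0.05, and the score of the list did not overlap between groups (−0.41 to −0.02 in controls, 0.13 to 0.24 after pristane). Il1b, the inflammatory cytokine itself, overlapped widely, 4.78 to 6.02 against 4.98 to 6.28, with a difference of 0.28 ± 0.32. In AIRmax mice the differences were 0.80 for Il1rn, 0.55 for Il1f9 and −0.53 for Il1f5. None of these 3 genes passed the test of a difference between the lines.

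Cornification genes had 14 of 15 means higher, 9 at an unadjusted p under 0.05 and 2 without overlap, with a median of 0.35. The shares of such higher ones over all genes were 5.12% and 3.19%. Casp14, the caspase of the upper epidermis that helps process filaggrin, read 7.85, 7.72, 7.54 and 7.26 in controls and 8.54, 8.32, 8.73 and 8.51 after pristane, a difference of 0.93 ± 0.14. It rose without array 118 (adjusted p = 0.0427). The other member without overlap was Flg2, filaggrin 2, at 0.46 ± 0.11. Krt78, which is not in this list, differed by 0.97 ± 0.22 (adjusted p = 0.0456 without array 118), also without overlap. Array 118 stood apart in this list, with a score of −0.36 against 0.33 to 0.38 for the other 3 pristane arrays and −0.42 to −0.04 for the controls. Klk5, a protease of shedding, showed it, with 8.72 on array 118 and 9.29 to 9.35 on the other pristane arrays, and Krt2 had 12.47 there. The keratins of upper and basal layers had differences of like size, 0.27 ± 0.13 for Krt1 and 0.33 ± 0.12 for Krt2 of the upper layers, 0.28 ± 0.10 for Krt5 and 0.27 ± 0.11 for Krt14 of the basal layer. Col17a1, a collagen that anchors basal cells, differed by 0.60 ± 0.18 without overlap. Of 11 genes of stressed epidermis 7 means were higher and 4 lower, with a median of 0.46. Their score overlapped, with −0.32 to 0.13 in controls and −0.26 to 0.48 after pristane. Higher at an unadjusted p under 0.05, as 5.12% of all genes were, stood 2 of the 11. They were Il1f9 and Sprr2d, a cornified envelope protein at 1.06 ± 0.21 (adjusted p = 0.0456 without array 118). Other genes near the top were Ggct, which turns over glutathione breakdown products (0.84 ± 0.10), the kinase gene Mapkapk3 (0.67 ± 0.10), Tmem154 (0.80 ± 0.12) and the amino acid transporter gene Slc6a20a (0.61 ± 0.09), each with an adjusted p of 0.0513. All 4 rose without array 118, Ggct with an adjusted p of 0.0413, Slc6a20a with 0.0462 and the others with 0.0456. An increase in the share of epidermis and a decrease in the share of the deeper tissue cannot be told apart on these arrays, since array signals are relative.

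Among marrow genes, the 2 granulocyte lists had the most positive medians of all lists, with a wide spread among replicates. Granulocyte precursor genes had a median of 0.92 and none of 7 at an unadjusted p under 0.05. Elane read 7.37, 8.59, 6.63 and 9.03 in controls and 7.96, 10.67, 7.28 and 9.40 after pristane, so that each group spanned over 2 log2 units. Mature neutrophil genes had a median of 0.65, with S100a8 between 7.17 and 10.66 in controls and between 8.65 and 11.42 after pristane. These 2 medians became 0.29 and 0.09 without array 118, 0.50 and 0.06 without control 115, and 1.51 and 1.22 without array 119. The neutrophil median was also 0.38 without array 120 and 1.08 without control 116. Erythroid genes had a median of 0.30, which became 0.02 without array 118, 0.10 without control 115, 0.46 without control 116 and 0.53 without array 117. Cell cycle genes had 21 of 21 means higher with a median of 0.31, and 0.12 without array 118 or 0.48 without array 119. Aurkb, a mitotic kinase at 0.40 ± 0.17, was the 1 member at an unadjusted p under 0.05.

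Genes known from inflamed joints did not share a direction. Of 14 genes of the acute phase and of interleukin 6 signalling 9 means were higher, 2 of them and 1 lower one at an unadjusted p under 0.05, with a median of 0.06. Orm1, an acute phase protein, read 8.47, 9.13, 8.78 and 8.59 in controls and 9.27, 9.73, 9.80 and 9.04 after pristane, a difference of 0.72 ± 0.20 with overlap. Il6ra, the receptor chain that binds interleukin 6, differed by 0.31 ± 0.11, also with overlap. Il6 read 1.90 to 2.27 in controls and 1.85 to 2.25 after pristane, the level of Y-linked genes in females. Saa3, the acute phase protein of inflamed tissue, read 3.63 to 4.17 against 3.56 to 4.39, a difference of 0.09 ± 0.19. The chemokine gene Ccl2 read 5.61, 5.70, 5.70 and 5.71 against 5.40, 5.25, 5.46 and 5.63, a difference of −0.25 ± 0.10, and Ccl7 differed by −0.58 ± 0.16 without overlap. Cxcl9, which interferon gamma induces, differed by −0.86 ± 0.25. These chemokines were picked as list members with the smallest p. Of 16 CC chemokine genes 6 means were higher and 10 lower, with a median of −0.12. Of 13 CXC chemokine genes 7 means were higher and 6 lower. Their median of 0.08 ranged from −0.06 without control 115 to 0.14 without control 114. Mmp3, stromelysin 1 of activated synovial fibroblasts, read 7.22, 7.26, 7.03 and 7.03 against 6.98, 6.68, 5.56 and 6.16, a difference of −0.79 ± 0.26. Timp1, the inhibitor of such enzymes, differed by −0.60 ± 0.21 (adjusted p = 0.046 without array 118). Of 16 matrix metalloproteinase and TIMP genes 14 means were lower, among them Mmp2 at −0.69 ± 0.18 and Timp2 at −0.49 ± 0.09. Interferon stimulated genes had none at an unadjusted p under 0.05, with a median of 0.27, which ranged from −0.08 without array 120 to 0.58 without array 119, and scores from −0.65 to 1.03 among the pristane arrays.

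The same contrast in AIRmax mice, which do develop arthritis, gave a direct test of whether a response differs between the lines. Over all 16 arrays, 34 genes (0.171%) passed an adjusted p of 0.05 for that difference, and all 34 were more positive in AIRmax. In AIRmin 32 of these 34 means were lower after pristane, with a median of −0.44, against a median of 1.43 in AIRmax. Choosing genes by that difference favours a low AIRmin and a high AIRmax value, so these counts and medians only describe the genes chosen. Leaving out single arrays gave 15 genes without AIRmin control 116, 16 without AIRmax control 105 or AIRmin pristane 117, 17 without AIRmax pristane 112, 22 without AIRmin pristane 119, 71 without AIRmin pristane 118 and 120 without AIRmax pristane 109. They included Saa3 (0.09 in AIRmin, 4.30 in AIRmax, adjusted p = 0.000147 for the difference), Mmp3 (−0.79, 3.50, 0.000924), Timp1 (−0.60, 2.47, 0.00011), Ccl7 (−0.58, 1.93, 0.0163) and Ccl2 (−0.25, 1.83, 0.021). Matrix genes took part, with Col5a2 at −1.08 in AIRmin and 0.87 in AIRmax (adjusted p = 0.0212), Lox at −1.07 and 0.72 (0.0212) and Fstl1, a secreted glycoprotein of fibroblasts, at −0.67 and 0.39 (0.0321). In the AIRmin response itself Fstl1 had an adjusted p of 0.0458 without array 118. Macrophage genes also passed the test of the difference between the lines. Cd68, of lysosomes, was at −0.60 and 0.81 (0.0346), and Cd14, which binds bacterial lipopolysaccharide, at −0.45 and 1.58 (0.0109). The scavenger receptor gene Msr1 was at −0.41 and 1.82 (0.000427). Without array 118 the AIRmin difference of Msr1 had an adjusted p of 0.0462. The complement receptor gene C3ar1, at −0.55 and 1.41 (0.021), and the lectin gene Clec4n, at −0.68 and 1.33 (0.0434), also passed. No B cell, adipocyte, bone, cartilage or epidermal list member passed. For example Fcer2a differed by −1.54 in AIRmax and Fabp4 by −0.99. The cornified epidermis list had opposite medians, 0.35 in AIRmin and −0.44 in AIRmax, but no gene of it passed the test of the difference, and fast muscle genes, at 0.12 (−0.14 without control 116) and −0.95, gave none either. A p that misses the threshold does not show that the lines respond alike.

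**Figure D5:**
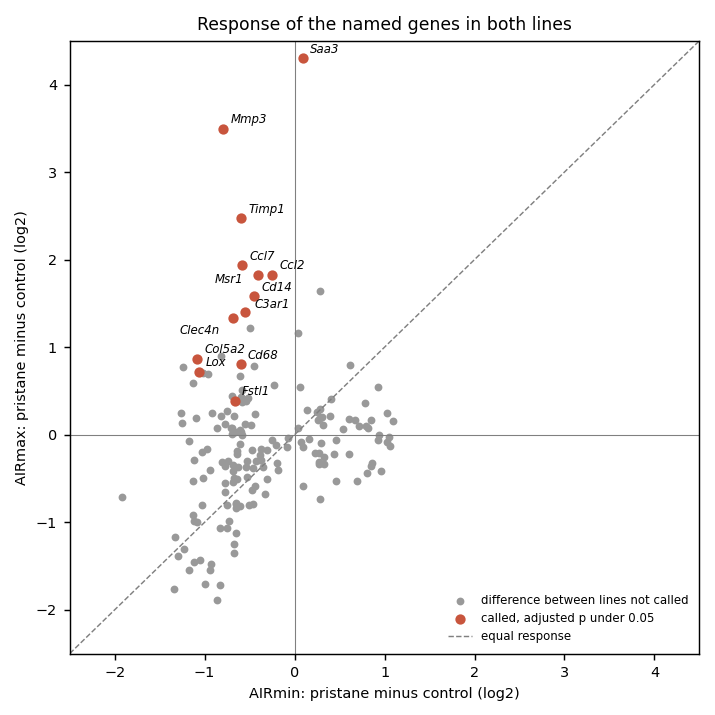
Pristane minus control in AIRmin (horizontal axis) and AIRmax (vertical axis) mice, log2, for the genes named by rule or in the text other than sex-linked ones. Red points passed an adjusted p of 0.05 for the difference between the lines, and every one of them lies above the dashed line of equal response.

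Within AIRmin the response of males and females was also compared. No gene passed an adjusted p of 0.05 for the difference between sexes (0.0%), where the smallest was 0.955 and 564 genes had an unadjusted p under 0.05. With 2 arrays of each sex and treatment only a large difference could be seen. Medians of the main lists kept their sign in both sexes, at −0.58 in males and −1.16 in females for bone, −0.41 and −0.65 for collagens, −0.32 and −0.53 for macrophages, and −0.85 and −0.77 for B cells. The epidermal median was 0.11 in males and 0.61 in females, and array 118 is 1 of the 2 pristane males.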

How the data were processed

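Total RNA from footpads was hybridised to Affymetrix Mouse Gene 1.0 ST arrays. The authors deposited 1 table of log2 signals per probe set, already background-corrected and normalized. The sample titles name gene-level RMA, the submitters' processing notes name MAS5, and versions are not given in the sources used here. The quartiles of the 16 arrays were close to each other, and no further scaling was applied.

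Of 35556 probe sets, 21789 named 1 gene in the platform annotation, 1621 named several and 12146 none. Only probe sets naming 1 gene were kept, and 21698 of them matched a RefSeq gene. For the 999 genes with several, the brightest probe set on average was taken, which left 19938 genes.

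Groups came from the labels. The AIRmin response was fitted on the 8 AIRmin arrays with limma 3.58.1 under R 4.3.3 (lmFit and eBayes, prior not trended), the difference between the lines as an interaction contrast on 16 arrays, and the difference between sexes on 4 cells of sex and treatment. The threshold was a Benjamini-Hochberg adjusted p of 0.05, over every gene tested. SAM was rerun in Python 3.11.15 over all 70 relabellings of the 8 arrays. Scripts were tested on simulated data. For a list score, each gene was centred on its mean over the 8 arrays and the list was averaged on each array. The labels do not say more of the replicates than that they are separate mice of 1 group, so p values measure the spread between these 4 samples, and their number limits the precision.

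The comparison, the 45 gene lists and the rule for named genes were chosen with earlier results of these data known, and no list was tested. Named genes are the 12 largest differences in each direction among genes without overlap whose higher group mean reached the median signal of all genes (6.15), the 6 smallest p values in each direction, up to 4 genes a list by smallest p under 0.05, the first marker of each cell type list, any gene past the threshold in the response or in the difference between sexes, and 4 sex-linked genes. Not all of them are printed. The leucine-rich proteoglycan family, its neighbours, and Il1b, Il6, Saa3, Mmp3, Timp1, Cd14, Msr1 and Fstl1 were chosen after their values were seen. Alternatives were the mean of probe sets, bright genes only, standardized or quantile-normalized arrays, a trended robust prior, array weights, a 2-fold minimum, all 16 arrays, sex as a covariate, SAM, and leaving out each array. Promoter sequences and gene order came from RefSeq tables of GRCm38.p6.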

Additional observations from a re-analysis of the deposited data

Results flagged for a closer look

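The response to pristane differed between the lines, by the interaction contrast in limma, for 13 of the genes named above, each more positive in AIRmax. The difference of responses, AIRmax minus AIRmin on the log2 scale, was 4.29 for Mmp3, 4.21 for Saa3, 3.07 for Timp1, 2.51 for Ccl7 and 2.23 for Msr1. It was 2.07 for Ccl2, 2.03 for Cd14, 2.02 for Clec4n, 1.96 for C3ar1 and 1.95 for Col5a2. It was 1.79 for Lox, 1.41 for Cd68 and 1.06 for Fstl1.

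Single arrays stood far from the other 3 of their group in the following values, which chance alone gives for about 1 in 20 groups. Among the pristane arrays, array 118 had 7.52 for Acan (6.58 to 6.71 in the others), 8.72 for Klk5 (9.29 to 9.35) and a cornified epidermis score of −0.36 (0.33 to 0.38). Array 119 had 12.07 for Dcn (12.47 to 12.54) and 8.51 for Nyx (7.94 to 7.99). Array 117 had 5.13 for Fcmr (5.42 to 5.46), and array 120 had 9.94 for Fmod (9.51 to 9.57).

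Among the controls, array 113 had 5.61 for Ccl2 (5.70 to 5.71), 9.65 for Csf1r (9.93 to 9.97), 6.77 for Tmem154 (7.21 to 7.22) and a dendritic and Langerhans cell score of −0.069 (0.16 to 0.18). Array 116 had 7.53 for Ccl24 (7.96 to 8.03) and an osteoblast and bone matrix score of 0.95 (0.24 to 0.32). Array 115 had 7.17 for Epyc (5.91 to 6.02) and 4.82 for Podnl1 (4.98 to 5.01), and array 114 had 10.00 for Cd68 (9.60 to 9.66).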

How the results depend on the processing

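The count of 0 genes in the AIRmin response became 416 with SAM, 99 with array weights (27 higher, 72 lower), 44 with genes above the median signal only, 33 with a trended robust prior, 11 with all 16 arrays in 1 fit, 4 with quantile normalization and 2 with sex as a covariate, and stayed 0 with the mean of probe sets, standardized arrays and a 2-fold minimum. The 4 under quantile normalization were Aspn, Ecm2, Fcmr and Tnmd. Of the 99 under array weights, 97 were also called by SAM and 64 without array 118. Leaving out 1 array gave 0 to 138 genes, 138 only without array 118. The 34 genes of the difference between lines became 52 with array weights and 61 with standardized arrays, and 15 to 120 with 1 array left out. The lowest counts came without arrays 116 (15), 105 and 117 (16 each), 112 (17) and 119 (22), the highest without 109 (120) and 118 (71). The difference between sexes gave 0 under every alternative run. Of list medians, 664 stayed within the spread between replicates under the alternatives and 11 moved beyond it. All 16 arrays, sex as a covariate and the trended robust prior cannot change a difference in this balanced design. Part of the 664 was therefore fixed beforehand. The spread is also wide for some lists. The mature neutrophil median of 0.65 became 0.06 without control 115 and still counted as within it.

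Among the named genes, 2563 recomputed differences kept their sign and their side of the threshold and 138 passed it. The sign changed in 15, all of genes with small differences: Il6 was −0.0082 with standardized arrays and −0.012 to 0.12 with 1 array left out, and in the same way Jchain ranged from −0.32 to 0.36, Alas2 from −0.38 to 0.46, Saa3 from −0.025 to 0.27, Actn3 from −0.028 to 0.46, Nol8 from −0.16 to 0.024 and Siglecf from −0.001 to 0.36. The causes were not tested. No paired analysis was possible because the array numbers that serve as replicate numbers are not shared between groups. The number of arrays and the low signal of genes near that of Y-linked genes in females limit what can be seen.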
